A study of Mus musculus with 8 samples.

Results

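MHC class I antigen presentation was followed through 10 genes in a mouse inner medullary collecting duct line with and without added NaCl. The members were the rows of the raw count table with the symbols H2-K1, H2-D1, B2m, Tap1, Tap2, Tapbp, Psmb8, Psmb9, Psmb10 and Nlrc5, and all 10 were found among 15288 genes. The study kept near-confluent IMCD cells, labelled as kidney duct cells, for 12 h in DMEM free of serum, without addition in the 4 control libraries and with 100 mmol NaCl added in the other 4. The question was how these cells respond in their transcripts to a hypertonic medium. The amount of salt is given by the labels without a volume. RNA was extracted with Trizol after growth in a high-glucose, pyruvate-containing medium with serum and antibiotics. Libraries carry the numbers 1 to 4 in the control group and 5 to 8 in the NaCl group. No label says whether the libraries of a group came from separate cultures, so p-values measure the spread between these libraries, which may be technical. All 8 libraries come from the same line, so the values describe that line and not the renal medulla.

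MHC class I molecules show peptides from inside the cell to CD8 T cells. Peptides are cut by the proteasome, in which interferon-inducible subunits can replace the constitutive catalytic ones, and are pumped into the endoplasmic reticulum by the TAP transporter. There a loading complex, held together by tapasin, fits them into a heavy chain paired with beta-2 microglobulin. Most nucleated cells, renal epithelium included, make class I molecules at a basal level and make more under interferon, and NLRC5 is a transactivator of many of these genes.

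Total counts lay between 35286796 and 47565623 per library, with control replicate 1 the highest and NaCl replicate 5 the lowest. The labelled cell type was checked with marker lists. Of 16 collecting duct and epithelial markers, 14 were measured, and their summed level lay between 1458 and 1832 CPM (counts scaled to a common library size) in control and between 2438 and 2705 CPM in NaCl libraries. Most of the difference between these sums was in Cdh16, at 639 CPM in control and 1380 CPM in NaCl libraries on average. Of the 12 markers tested 5 were called higher, among them Cdh16, Pax2 and Pax8, and 2 lower, Gata3 and Hoxb7, while Krt7, Krt8 and Krt18 were not called. In contrast to the abundant Krt7, Krt18, Cdh16 and Pax8, Aqp2 had at most 3 counts in a control and 15 in a NaCl library and Cdh1 at most 30 counts in any library. Among 8 fibroblast markers 6 were measured, and their sum was 3128 to 3635 CPM in control and 2820 to 3254 CPM in NaCl libraries, most of it Col1a1. Of these 6, Col1a1 and Pdgfra were called lower and Pdgfrb higher, from 37.5 to 61.1 CPM on average. Of 7 proximal tubule and thick limb markers 5 were measured, with sums of 164 to 207 CPM in control and 159 to 180 CPM in NaCl libraries, most of it Lrp2, and none of the 4 tested was called. Of 7 endothelial markers 3 were measured, with sums of at most 1.21 CPM in any library. Of 13 leukocyte markers 3 were measured, with sums of 12.8 to 16.2 CPM in control and 21.5 to 25.96 CPM in NaCl libraries. The rise was in Ptprc (CD45), at 4.05 ± 0.346 CPM in control and 13.5 ± 0.434 CPM in NaCl libraries (± SD, 4 libraries each), while Csf1r and Coro1a did not pass the test. The part of these other markers in the results on antigen presentation was not tested.

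Of the genes, 7 lie in the H2 complex on chromosome 17, in coordinates of the GRCm38 build (mm10). Tapbp (ENSMUSG00000024308) spans chr17:33915899-33929292 and H2-K1 (ENSMUSG00000061232) chr17:33996017-34000347. Psmb9 (ENSMUSG00000096727, chr17:34181987-34187764), Tap1 (ENSMUSG00000037321, chr17:34187553-34197225), Psmb8 (ENSMUSG00000024338, chr17:34197721-34201454) and Tap2 (ENSMUSG00000024339, chr17:34203527-34216321) stand side by side within 34.3 kb. H2-D1 (ENSMUSG00000073411) lies further along at chr17:35262730-35267499. B2m (ENSMUSG00000060802) is at chr2:122147686-122153083, Psmb10 (ENSMUSG00000031897) at chr8:105935735-105938444 and Nlrc5 (ENSMUSG00000074151) at chr8:94434356-94527272. Psmb9 and Tap1 are transcribed away from each other and overlap at their 5′ ends, on 5.79% and 3.87% of their exon bases. As the strand setting of the counting is not given in the sources used here, reads from that overlap cannot be assigned with certainty. As a share of the longest coding transcript, the sequence shared between them was 15.7% for Psmb9 and 7.18% for Tap1.

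Promoter windows of 300 bases, 250 before and 50 after a RefSeq start site (GRCm38.p6), were found for 8 of the 10 members. The windows shown belong to the class I chains, which were lower together with NaCl, to the divergent Tap1 and Psmb9 pair, and to Tapbp, the member that was higher. Capitals mark matches on either strand to 6 motifs. These were an interferon-stimulated response element (GAAA repeated after any 2 bases), a kappa B motif (GGG first and CC last, each separated by any 2 bases from a central T) and a gamma-activated sequence (TTCNNNGAA). The others were the CCAAT box, named for its letters, the core of the cAMP response element (TGACG) and the core bound by interferon regulatory factors (AANNGAAA). The last of these was added after the sequences had been read, and it overlaps the response element in B2m.
H2-K1: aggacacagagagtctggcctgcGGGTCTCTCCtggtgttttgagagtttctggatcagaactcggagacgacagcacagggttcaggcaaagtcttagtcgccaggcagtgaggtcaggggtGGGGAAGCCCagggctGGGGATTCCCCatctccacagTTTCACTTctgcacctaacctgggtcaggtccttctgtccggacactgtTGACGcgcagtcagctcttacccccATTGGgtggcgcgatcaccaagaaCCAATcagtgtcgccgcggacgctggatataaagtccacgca
H2-D1: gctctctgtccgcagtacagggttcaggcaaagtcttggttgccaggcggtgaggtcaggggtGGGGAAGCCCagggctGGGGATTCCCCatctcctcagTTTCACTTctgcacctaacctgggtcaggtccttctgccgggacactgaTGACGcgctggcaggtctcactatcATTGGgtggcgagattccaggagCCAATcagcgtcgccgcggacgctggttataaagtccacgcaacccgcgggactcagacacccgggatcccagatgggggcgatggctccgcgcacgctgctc
B2m: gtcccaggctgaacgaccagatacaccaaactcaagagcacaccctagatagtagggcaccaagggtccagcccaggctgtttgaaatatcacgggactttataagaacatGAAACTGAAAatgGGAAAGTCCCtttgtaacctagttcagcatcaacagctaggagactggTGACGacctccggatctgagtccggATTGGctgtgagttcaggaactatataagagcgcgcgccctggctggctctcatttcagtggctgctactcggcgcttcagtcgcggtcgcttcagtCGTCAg
Tap1: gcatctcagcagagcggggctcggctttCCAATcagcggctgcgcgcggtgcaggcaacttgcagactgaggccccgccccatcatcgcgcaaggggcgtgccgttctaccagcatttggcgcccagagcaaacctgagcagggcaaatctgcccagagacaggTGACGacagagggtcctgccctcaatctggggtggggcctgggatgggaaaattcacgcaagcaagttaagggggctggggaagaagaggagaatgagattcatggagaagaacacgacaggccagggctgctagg
Tapbp: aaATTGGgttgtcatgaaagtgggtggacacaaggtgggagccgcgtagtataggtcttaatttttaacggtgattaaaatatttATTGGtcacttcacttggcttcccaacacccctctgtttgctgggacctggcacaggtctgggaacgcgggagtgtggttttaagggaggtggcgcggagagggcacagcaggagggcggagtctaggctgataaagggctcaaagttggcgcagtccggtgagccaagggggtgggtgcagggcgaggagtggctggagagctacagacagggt
The windows are chr17:34000298-34000597 on the minus strand for H2-K1, chr17:35262844-35263143 on the plus strand for H2-D1, chr2:122147437-122147736 on the plus strand for B2m, chr17:34187306-34187605 on the plus strand for Tap1 and chr17:33919228-33919527 on the plus strand for Tapbp. The Psmb9 window (chr17:34187281-34187580, minus strand) shares 275 bases with that of Tap1.

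The H2-K1 and H2-D1 windows aligned over 239 bases with 88.3% identity. In both, a kappa B match was followed by an interferon regulatory factor core and then by TGACG and ATTGG, the reverse complement of the CCAAT box. B2m held a response element, a kappa B match, TGACG and ATTGG. In these 3 windows exactly 20 bases separated TGACG from ATTGG, a spacing noticed after the sequences had been read. That pair, searched on both strands, was in 0.0944% of 32851 RefSeq windows of the same length. The kappa B motif was in 3 of the 8 member windows and in 18.4% of all windows, the core of the interferon regulatory factors in 3 and in 23.9%, TGACG in 5 and in 20.8%, and the CCAAT box in 6 and in 37.4%. The response element was in 1 member window and in 3.44% of all windows, and the gamma-activated sequence in 1, that of Psmb8, and in 8.3%. Tap1 and Psmb9 share the bases that hold their matches. The Tapbp window held CCAAT box matches only, that of Psmb8 the gamma-activated sequence only, and that of Psmb10 no match to any of these motifs. The windows of Tapbp, Psmb8 and H2-D1 lie wholly inside the annotated gene spans, downstream of their 5′ ends. A missing match therefore holds for the window searched and not for other start sites. These are matches of letters and not measured binding. For Tap2 and Nlrc5 no window is shown.

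The members differed widely in level. Levels between genes are compared as CPM per kilobase of exon, which is the scale of the next figures. B2m stood at 859 ± 44.2 in control (SD, n = 4), above 99.8% of the 14020 genes ranked. H2-D1 followed at 378 ± 5.83 and H2-K1 at 339 ± 13.8, and their order reverses when the longest coding transcript is the length (464 for H2-D1 and 615 for H2-K1). Tapbp stood at 115 ± 4.84. The other members were far lower, from Psmb10 at 27.2 ± 1.24 through Tap1 at 11.1 ± 0.875, Tap2 at 5.70 ± 0.260, Psmb8 at 4.50 ± 0.159 and Nlrc5 at 2.48 ± 0.117 down to Psmb9 at 1.23 ± 0.123. With the longest coding transcript as the length, Psmb8 (9.35) stood above Tap2 (6.27) and Psmb9 (3.32) above Nlrc5 (2.78). The constitutive catalytic subunits of the proteasome stood above all 3 inducible ones, with Psmb5 at 140, Psmb6 at 93.9 and Psmb7 at 41.8. In control libraries Tap1 lay above 65.5% of genes, and in NaCl libraries above 43.2%.

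**Figure D1:**
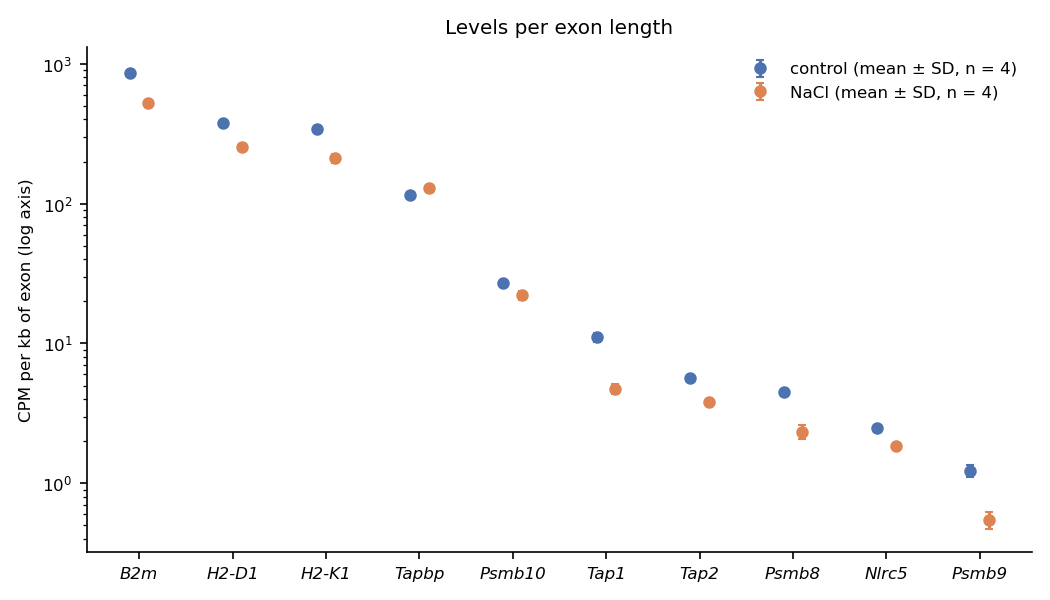
Level of each member as CPM per kilobase of exon (log axis), mean ± SD of 4 control and 4 NaCl libraries. B2m, H2-D1, H2-K1 and Tapbp lie above 100 in both groups, and Psmb9 is the lowest member in both.

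With NaCl, 9 of the 10 members were lower and 1, Tapbp, was higher, and all 10 passed edgeR's quasi-likelihood test at an adjusted p-value under 0.05. Over all 14024 genes tested, 17.2% were called lower and 16.9% higher, 34.1% in either direction. For the same 9 members every NaCl library lay below every control library, which held for 16.9% of all genes, and for Tapbp every NaCl library lay above every control library (16.5% of all genes). The median log2 fold change of the members was -0.64, beside 0.0029 over all genes. Log2 fold changes are NaCl over control, with a standard error (SE) from the fit, and p-values are adjusted by Benjamini and Hochberg over all genes tested. In such bulk samples fewer cells expressing a gene and less RNA per cell cannot be told apart.

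**Figure D2:**
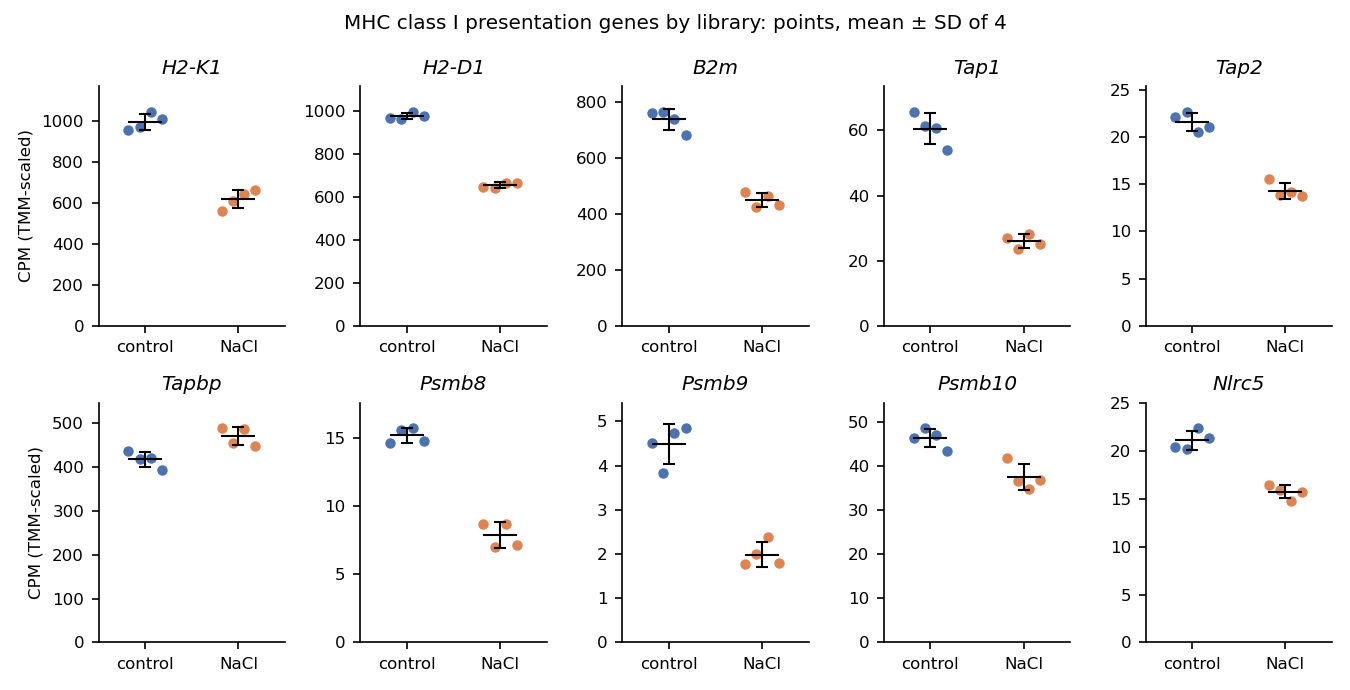
CPM, scaled by TMM factors, of the 10 members in each of the 4 control and 4 NaCl libraries (points), with the mean ± SD of each group (bars), and axes that start at 0. The groups do not overlap for any member, and Tapbp is the member with its NaCl libraries on top.

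The class I chains were the most abundant members per kilobase, and all 3 fell. H2-K1, a classical heavy chain, had 958, 970, 1046 and 1012 CPM in control replicates 1 to 4 and 563, 611, 643 and 665 CPM in NaCl replicates 5 to 8. The highest NaCl library was thus well below the lowest control. Its log2 fold change was -0.68 (SE 0.047, edgeR adjusted p = 2.59e-08), a level 37.7% lower. H2-D1, the other classical heavy chain, had 969, 961, 996 and 976 CPM in control and 644, 642, 664 and 666 CPM in NaCl libraries. It varied least among the members, and its log2 fold change was -0.58 (SE 0.031, edgeR adjusted p = 4.42e-10). B2m, the light chain that every class I molecule needs, had 764, 767, 741 and 685 CPM in control and 478, 425, 466 and 431 CPM in NaCl libraries. Its log2 fold change was -0.72 (SE 0.045, edgeR adjusted p = 6.21e-09), a level 39.1% lower. With the linear drift over the library numbers 1 to 8 added to the fit, the log2 fold changes spread to -0.91 for H2-K1, -0.63 for H2-D1 and -0.55 for B2m, each still called. No library number is shared by the groups, so this term extends the slope within groups across the gap between them. A search with the longest coding transcript of each of these 3 genes found no alignment of 75 bases or more at 98% identity to another gene. Identity was taken over whole alignments, so a near-identical stretch inside a longer, more diverged alignment would be missed. Class I genes vary between mouse strains, and how well the reads of this line matched the reference alleles was not tested.

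Summing the 8 measured H2-K, H2-D, H2-Q and H2-T genes into 1 feature, within which reads assigned to the wrong one of these copies do not change the sum, gave a log2 change of -0.57 (SE 0.034, edgeR adjusted p = 1.51e-09). Most of the sum is H2-K1 and H2-D1, at 996 and 976 CPM on average in control, and it includes H2-T23, which was not called by itself. Reads left uncounted because they match several copies are not recovered by the sum. Sequence shared with genes outside the sum, such as that of H2-T22 with H2-T10 and of H2-Q4 with Gm11131, is not covered by it. The 8 genes' share of all counts was 0.230 ± 0.0038% (± SD, 4 libraries) in control and 0.156 ± 0.0038% in NaCl libraries.

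The transporter genes changed unequally in size. Tap1 encodes one chain of the peptide pump and had 65.7, 61.5, 60.7 and 54.1 CPM in control and 27.0, 23.5, 28.3 and 25.1 CPM in NaCl libraries. This was the member with the lowest log2 fold change, -1.22 (SE 0.066, edgeR adjusted p = 1.11e-09), a level 57.1% lower. Tap2 encodes the partner chain and had 22.1, 22.7, 20.5 and 21 CPM in control and 15.6, 13.8, 14.1 and 13.7 CPM in NaCl libraries. Its log2 fold change was -0.59 (SE 0.069, edgeR adjusted p = 4.91e-06), and the 95% intervals of the pair, -1.36 to -1.08 and -0.74 to -0.45, did not meet. Tap2 is overlapped on 18.5% of its exon bases by other annotated genes, mainly Gm15821.

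Tapbp, which encodes tapasin, the bridge between transporter and class I molecule, went against the other members. It had 437, 418, 420 and 394 CPM in control and 488, 456, 486 and 449 CPM in NaCl libraries. The groups were close but did not overlap, and the log2 fold change was 0.17 (SE 0.039, 95% interval 0.088 to 0.25, edgeR adjusted p = 0.00269). With the linear drift it was 0.31 (adjusted p = 6.74e-05). Other annotated genes, mainly Gm19412, overlap 29.0% of its exon bases, so part of its counts is uncertain. The change did not pass a test against a minimum change of 1.2-fold (adjusted p = 1).

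Of the inducible proteasome subunits, Psmb8 and Psmb9 fell more than Psmb10. Psmb8 (LMP7), which takes the place of Psmb5, had 14.7, 15.6, 15.8 and 14.8 CPM in control and 8.68, 7.02, 8.72 and 7.17 CPM in NaCl libraries. Its log2 fold change was -0.95 (SE 0.090, edgeR adjusted p = 5.19e-07). Gm20496 overlaps 14.7% of its exon bases. Psmb9 (LMP2), which takes the place of Psmb6, had the fewest reads of the members, with counts of 215, 162, 196 and 205 in control and of 64, 85, 98 and 75 in NaCl libraries. In CPM these were 4.51, 3.84, 4.74 and 4.85 against 1.79, 2.01, 2.38 and 1.79, which gave a log2 change of -1.17 (SE 0.15, edgeR adjusted p = 1.70e-05). The low counts give it the widest interval of the members, -1.49 to -0.85. Psmb10 (MECL-1), which takes the place of Psmb7, had 46.4, 48.7, 47.1 and 43.6 CPM in control and 41.9, 36.6, 34.9 and 37.0 CPM in NaCl libraries. Here the lowest control and the highest NaCl library stood close together, and the log2 fold change was -0.31 (SE 0.058, edgeR adjusted p = 6.37e-04). Psmb10 lost its call with the linear drift over library numbers in the fit (log2 fold change -0.12, adjusted p = 0.414) and in the test against 1.2-fold (0.537).

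Nlrc5, the transactivator of class I genes, had 20.5, 20.2, 22.4 and 21.4 CPM in control and 16.5, 15.96, 14.8 and 15.7 CPM in NaCl libraries. All NaCl libraries lay below all controls. Its log2 fold change was -0.42 (SE 0.066, edgeR adjusted p = 1.10e-04), a level 25.4% lower.

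**Figure D3:**
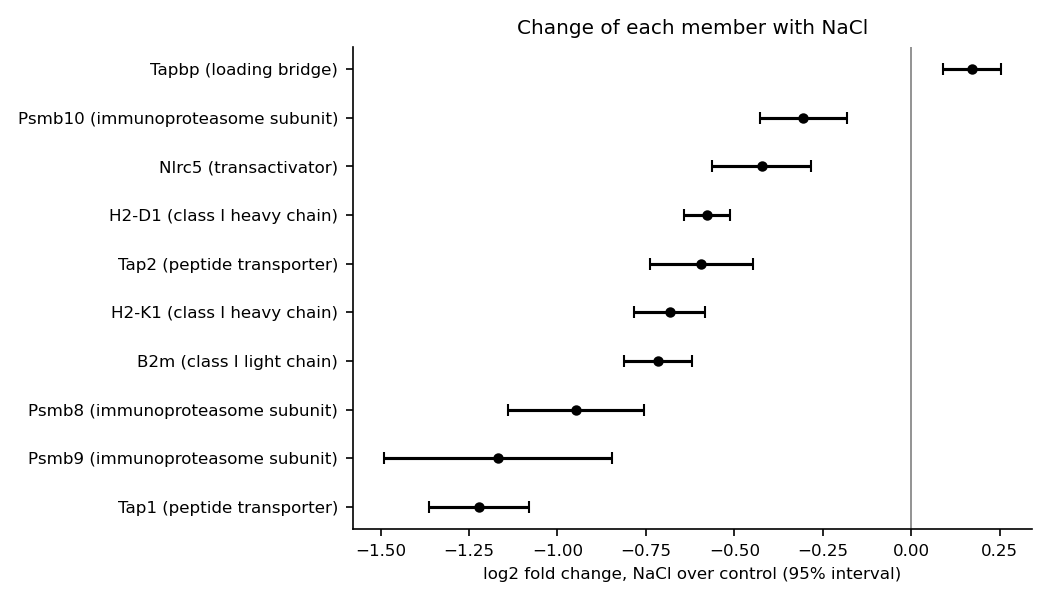
Log2 fold change of each member, NaCl over control, with its 95% interval from the edgeR fit. The interval of Tapbp (0.088 to 0.25) lies above 0, those of the other 9 members below 0, and Tap1 and Psmb9 are the furthest from 0.

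Ratios of transcripts within a library do not depend on how libraries are scaled, and 8 were compared. They count reads of a gene per 100 reads of another and are not ratios of molecules. With 4 libraries a group the smallest p an exact two-sided permutation test can give is 0.0286. The ratios at that smallest value had 0.0571 after adjustment over the 8 ratios, which depends on how many ratios reach it. No ratio passed 0.05 after adjustment. Psmb8 had 11.6, 12.0, 12.9 and 11.8 reads per 100 of Psmb5 in control and 6.86, 5.74, 6.81 and 5.74 in NaCl libraries, a log2 difference of -0.94 (exact permutation p = 0.0286, adjusted 0.0571). The level of Psmb5 gave an edgeR adjusted p of 0.875 (95% interval of its log2 fold change -0.080 to 0.063). Its transcript shares 88.4% of its length with the annotated gene Gm3375, so its counts are uncertain. For Psmb9 per 100 of Psmb6 the values were 2.47, 2.12, 2.79 and 2.86 in control and 1.17, 1.30, 1.52 and 1.23 in NaCl libraries, a log2 difference of -0.96 with the same p-values. Psmb10 per 100 of Psmb7 was 32.5 ± 1.5 in control and 28.3 ± 0.996 in NaCl libraries (± SD, 4 libraries each), a log2 difference of -0.20, also with the same p-values. Psmb7 has 35.1% of its transcript in common with Nek6, so its counts are uncertain as well. For all 3 pairs of an inducible and a constitutive subunit the NaCl libraries lay below the controls without overlap.

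Tap1 per 100 reads of Tap2 was 281 ± 19.5 in control and 182 ± 13.5 in NaCl libraries (± SD, 4 libraries each), a log2 difference of -0.63 without overlap (exact permutation p = 0.0286, adjusted 0.0571). By contrast the divergent neighbours gave overlapping values, with 1364 ± 210.2 reads of Tap1 per 100 of Psmb9 in control and 1320 ± 165.2 in NaCl libraries (log2 difference -0.048, exact permutation p = 0.743, adjusted 0.8). Reads from the sequence that Tap1 and Psmb9 share may be counted for either, which bears on this ratio and on Psmb9, the less abundant of them. The chains of the class I molecule also overlapped. H2-K1 per 100 reads of B2m was 135 ± 11.1 and 139 ± 15.3 (log2 difference 0.032, exact permutation p = 0.8, adjusted 0.8), and H2-K1 per 100 of H2-D1 was 102 ± 2.77 and 94.8 ± 5.24 (log2 difference -0.11, exact permutation p = 0.0571, adjusted 0.0914). Psme1 per 100 of Psme3, subunits of proteasome activators of which the first belongs to the interferon-inducible one, was 153 ± 9.69 and 158 ± 8.43 (log2 difference 0.051, exact permutation p = 0.4, adjusted 0.533). With 4 libraries a group these p-values do not show that the overlapping ratios were equal.

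**Figure D4:**
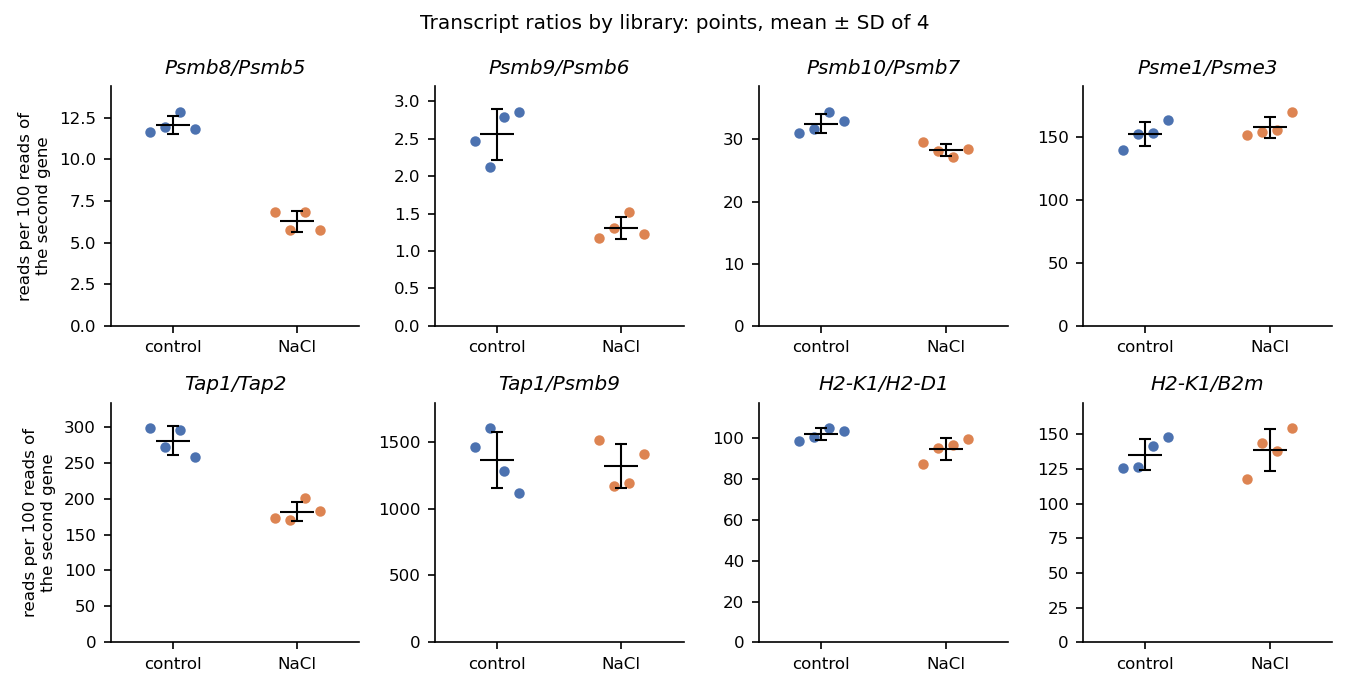
Reads of the gene named first per 100 reads of the gene named second in each library (points), with the mean ± SD of 4 control and 4 NaCl libraries and axes that start at 0. The groups separate for Psmb8/Psmb5, Psmb9/Psmb6, Psmb10/Psmb7 and Tap1/Tap2 and overlap for the other 4 ratios.

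Partner genes of the pathway were read from 7 lists with 109 genes, of which 68 were tested. Of these 68, 36 were called lower and 4 higher, with a median log2 fold change of -0.13. Over all genes tested, 17.2% were called lower and 16.9% higher, and these shares are the background for each list below. With the linear drift over library numbers in the fit, 15 were called lower and 3 higher, beside 12.6% and 11.5% of all genes, so that count depends on the term. Of the members 8 were still called lower.

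Among other class I and class I-like genes, 6 of 11 tested were called lower and none higher. Without NaCl replicate 8 the genes called higher were 2, and with the drift term 1. H2-Q4, a non-classical class I gene, went from 76.0 ± 6.50 to 42.5 ± 2.35 CPM (± SD over 4 libraries), a log2 fold change of -0.84 (edgeR adjusted p = 2.22e-08). Other annotated genes match 36.7% of its transcript, so its counts are uncertain. H2-T23, the mouse counterpart of HLA-E, had 108, 111, 119 and 119 CPM in control and 116, 106, 123 and 122 CPM in NaCl libraries, with groups that overlapped (log2 fold change 0.030, 95% interval -0.075 to 0.13, edgeR adjusted p = 0.687). That interval lies above those of H2-K1 and H2-D1.

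The loading partners moved little. Of 8 tested, 6 were called lower and 1 higher, with a median log2 fold change of -0.13. The called gene with the highest absolute change was Tapbpl, a tapasin-related peptide editor, which went from 15.8 ± 1.01 to 13.02 ± 1.27 CPM (log2 fold change -0.28, edgeR adjusted p = 0.0151) and lost its call without NaCl replicate 6 (-0.24, adjusted p = 0.055) and with the drift term (-0.20, adjusted p = 0.398). With the drift term only 1 of the 8 was called lower. Proteasome partners had 6 of 13 called lower and none higher, led by the assembly chaperone gene Psmg4, which went from 9.33 ± 0.607 to 5.62 ± 0.549 CPM (log2 fold change -0.73, edgeR adjusted p = 3.40e-05). Psmb6 fell, with a log2 fold change of -0.21 (edgeR adjusted p = 3.49e-04), and lost that call with the drift term (-0.086, adjusted p = 0.352).

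Transcription factors of class I genes were mixed, with 7 of 19 called lower, 3 higher and 9 not called. Irf8 had the highest absolute change, from 8.41 ± 1.17 to 5.19 ± 0.858 CPM (log2 fold change -0.70, edgeR adjusted p = 6.08e-04), and lost its call with the drift term (-0.27, adjusted p = 0.45). Under that term 1 of the 19 was called lower. Irf7, far more abundant than Irf8, changed nearly as much, from 365 ± 23.5 to 231 ± 19.3 CPM (log2 fold change -0.66, edgeR adjusted p = 4.43e-06). Receptors, kinases and negative regulators of interferon signalling had 11 of 14 called lower and none higher, and 4 lower with the drift term. Without NaCl replicate 5, 1 was called higher. Ifngr1, the ligand-binding chain of the interferon gamma receptor, led them, from 164 ± 10.2 to 111 ± 11.7 CPM (log2 fold change -0.55, edgeR adjusted p = 1.72e-04), and was at -0.92 with the drift term. None of the 9 interferon genes listed was measured in the table. Of the class II presentation genes 3 were tested, H2-DMa, H2-DMb1 and Cd74, each at no more than 5.90 CPM on average in control, and none was called. Without control replicate 1, and likewise without NaCl replicate 6, 1 of them was called higher.

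**Figure D5:**
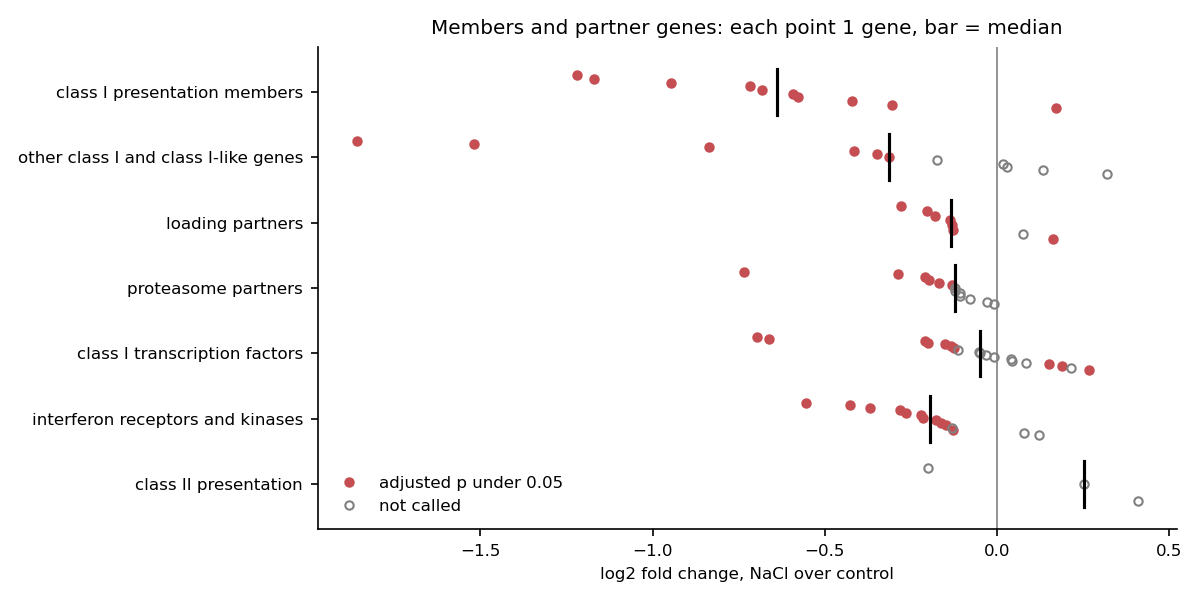
Log2 fold change, NaCl over control, of every tested member and partner gene (points, filled where the edgeR adjusted p-value is under 0.05), with the median of each list as a bar. The member list has the lowest median (-0.64), and Tapbp is its single point above 0.

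The genes whose levels over the 8 libraries were most like the mean standardized profile of the members were Actr2, Parp14, Zbp1, Niban1 and Acer3, with Pearson's r from 0.992 to 0.997. These r values are a description, since all genes share the libraries and the difference between the groups. Zbp1, a sensor of nucleic acids, had the largest change of the 5, from 50.4 ± 2.995 to 22.6 ± 2.16 CPM (± SD, 4 libraries each; log2 fold change -1.16), and Actr2, an actin-nucleating subunit, the smallest, from 294 ± 1.82 to 260 ± 3.55 CPM (log2 fold change -0.17).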

How the data were processed

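Bulk RNA of 4 control and 4 NaCl libraries was analysed. Trim Galore 0.6.7, STAR, DESeq2 1.34.0 and the build mm10 are named in the submitters' processing notes; the counting program and strandedness are not given in the sources used here. The deposited raw table holds whole-number counts for 15288 genes, and no gene totals under 19. The authors' normalized table holds a signal equal to the count divided by 1 factor per library, and it was used in an alternative only.

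Counts were tested with edgeR 4.0.16 in R 4.3.3 (filterByExpr at a minimum count of 10, TMM, robust quasi-likelihood fit of group alone), which left 14024 genes. Calls needed an adjusted p-value below 0.05. CPM used TMM-scaled totals, and ratios a pseudocount of 0.5. On simulated counts for 14022 genes of this comparison, 96% of 100 genes changed by 0.5 and 100% of 100 changed by 1 (log2) were recovered. Libraries of a group differed by more than sampling noise (chi-square per gene of at least 5.24). By that measure control replicate 1 differed from replicates 2, 3 and 4 by 6.5, 16.8 and 20.85. NaCl replicate 5 differed from replicates 6, 7 and 8 by 8.53, 14.86 and 22.97. Between the groups, control replicate 4 stood at 66.5 from NaCl replicate 5 and at 44.5 from NaCl replicate 8. What this order marks was not tested. Lengths, overlaps and sharing came from GENCODE M21 with blastn 2.17.0.

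The members and lists were chosen with earlier results of these data known. Named genes were the members, the ratio partners, in each list the called gene with the highest absolute change (mean log2 CPM 1 or above), and the 5 genes most alike by Pearson's r (mean 3 or above). Genes outside this rule (markers of cell types, H2-T23, Irf7, class II genes, genes with the spaced motif pair) were named after their values were seen. Alternatives used limma 3.58.1 and DESeq2 1.42.0, other scalings, filters, thresholds, thinning, library number as covariate, and leaving out libraries.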

Additional observations from a re-analysis of the deposited data

Results flagged for a closer look

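Among 56 sets of 4 values, 1 per library of a group, 3 had a highest or lowest value with a wide gap to its neighbour, and chance gives about 1 such set in 20, or 2.8. All 3 concern partner genes and none a member. NaCl replicate 5 had 141.9 CPM of Psmb7, against a range of 128.7 to 130.4 CPM in NaCl replicates 6 to 8. Without that library its log2 fold change was -0.14 (edgeR adjusted p = 0.0364), in place of -0.11 (0.0954). Psme1 had 210.1 CPM in control replicate 4, against 194.0 to 196.5 CPM in the other controls. Psme3 had 138.3 CPM in control replicate 1, against 127.8 to 128.3 CPM.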

How the results depend on the processing

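The members were refitted under 23 alternatives (H2-K1 and H2-D1 not under the one that sums the heavy chains, of which they are part), and 225 of 228 refits left direction and call unchanged. The exceptions were Psmb10 and Tapbp in the test against a 1.2-fold change and Psmb10 under the linear drift over library numbers. No member lost its call when any library was left out, also not without the libraries of outlying depth (control replicate 1 and NaCl replicate 5), an alternative chosen after seeing the data. In the 1.2-fold test the members called higher were 0 in place of 1, and the partner genes called were 8 lower and 0 higher in place of 36 and 4. With the drift the partner genes called lower were 15, and with the number centred within groups those called higher were 8, while over all genes that fit called 3085 lower and 2945 higher in place of 2418 and 2371. With the centred number 5 class I transcription factors were called higher in place of 3, and 1 of the other class I genes and 1 of the interferon receptor list in place of 0, the latter also without the libraries of outlying depth. At an adjusted p under 0.01 the interferon receptor list had 7 called lower in place of 11. Psmb5, not called, had a log2 fold change of 0.0019 with library totals alone, 0.0052 without control replicate 2, 0.0034 without NaCl replicate 6 and 0.014 with the drift, in place of -0.0084, and lay between -0.025 and 0.0052 over all fits without 1 library. Psmb7, not called, was at 0.11 with the drift, and was called lower without control replicate 4 (-0.15, adjusted p = 0.0222), without NaCl replicate 5 (-0.14, 0.0364) and with the centred number (-0.11, 0.00833). Psme1, not called, was called lower with the centred number (-0.079, 0.0244) and with the drift (-0.22, 0.0052). Over all genes, 1600 were called lower and 1545 higher at an adjusted p under 0.01, and 476 and 600 in the 1.2-fold test, in place of 2418 and 2371. The drift and the centred number give the same model, and only the meaning of the group term differs. In the drift fit that term is what remains once the slope within groups is extended across the gap between them. The cause of these changes was not tested, and what the library numbers mark is not given. No ratio changed direction or side of the threshold under another pseudocount, the authors' normalized values or medians. With a library left out, ratios have no adjusted test, and the sign turned for H2-K1/B2m (-0.0035 without control replicate 1, -0.022 without NaCl replicate 8) and Tap1/Psmb9 (0.032 without control replicate 2, 0.0057 without NaCl replicate 6), whose groups overlap. No paired analysis was run, because the groups share no replicate number and the labels pair no control with a NaCl library. Among the members, depth limits Psmb9 most, with 64 to 215 counts.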

Other observations

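The pair of boxes found 20 bases apart in the H2-K1, H2-D1 and B2m promoters (TGACG and ATTGG, either strand) was in the RefSeq windows of 27 genes in all, of which 19 were tested. Besides the 3 members these held H2-M3, a non-classical class I gene of the same complex (log2 fold change -0.35, edgeR adjusted p = 0.0119). Of the 19 genes, 6 were called lower and 2 higher, with a median log2 fold change of -0.081, beside 17.2% lower and 16.9% higher over all genes tested. Without the 3 members that led to the search, 3 of 16 were called lower and 2 higher, a share near that of all genes. The genes called lower were the 4 class I genes, Hnrnpf (-0.098) and Nrarp (-0.97). The spacing was chosen after the sequences had been read, so these counts describe the windows and carry no test.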
